A study of Mus musculus with 9 samples.

Results

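In the transformed marrow cells given ethanol (Runx2wt), 78 of the 21159 genes counted met a rule that sets this group apart from both other groups of the study. The rule read the authors' normalized counts, in which each library is scaled by 1 constant. A gene's highest value among the 9 libraries had to be at least 40. In the peak set the lowest of the 3 Runx2wt values was at least 1.5 times the highest of the 6 values in the other groups, which held for 9 genes. In the dip set the highest Runx2wt value times 1.5 was no more than the lowest of those 6 values, which held for 69 genes. Runx1, Hoxa genes and Hpgd were left out by the rule. The members were chosen by these same values, so the differences of Runx2wt from the other groups are given as descriptions without a test.

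The libraries were made by QuantSeq, a 3' tag method, from mouse lineage-depleted bone marrow cells with floxed Runx2 (Runx2fl/fl) and a tamoxifen-activated Cre (CreER T2tg). All 3 groups of 3 libraries share this genotype, and the labels call the samples independent biological replicates. Per the labels' protocols the cells received a retrovirus carrying KMT2A-MLLT1 and eGFP, grew in methylcellulose and were replated every 7 days. BM progenitor RNA was untreated and came from before the first replating; the labels do not say whether cells with the fusion were selected for it. Runx2wt and Runx2ko were later suspension cultures called transformed, given ethanol or 4-hydroxytamoxifen (4-OHT, 400 nM for 24 hours), which activates Cre. Culture form and passage therefore cannot be told apart from transformation, nor 4-OHT and Cre activity from loss of Runx2. The protocol for RNA extraction names T-ALL cells, which no sample label does.

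Library totals ran from 3118594 to 5348177 counts, and 1 count was worth 0.786 to 1.37 normalized counts. Runx2 itself was at 229.5, 201 and 254 normalized counts in BM progenitor and at 675, 770 and 561 in Runx2wt. The libraries labelled Runx2ko had 88.9, 511 and 583, so replicates 2 and 3 were not low for Runx2 as their label would have it. Which exon is floxed is not stated, and 3' tags outside it would not check the deletion. The library labelled Runx2ko replicate 1 also stood apart in other genes: its log2 values correlated across genes at 0.811 to 0.832 with the other 5 transformed libraries, whereas the best partner of each Runx2wt library reached 0.952 to 0.964. A list of 16 mast cell and basophil markers summed to 30494 normalized counts there, against 434 and 2719 in the other libraries labelled Runx2ko, 501 to 1636 in Runx2wt and 5605 to 6186 in BM progenitor. The sum of 23 monocyte and macrophage markers was 3144 there and at least 18695 in every other library. No directional statement about Runx2ko below is a statement about Runx2 level.

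The rule for the dip set is also met when Runx2wt is at 0 and another library is at 0 too, since 0 is 1.5 times 0. Of the 69 dip genes, 24 had counts in Runx2wt and 45 had none in any of its 3 libraries. Only 4 of those 45 (Cd96, Epb41l4b, Fscn1 and Kcnk5) had a count in every other library; the other 41 shared their 0 with at least 1 BM progenitor or Runx2ko library. The dip set therefore holds 28 genes in which Runx2wt was below every other library and 41 in which it was only not above any. Over the group, the limit that a count of 0 allows was taken as 3 counts, for counting error only.

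RUNX2 belongs to the RUNX family of transcription factors, which bind a short DNA motif together with the partner CBFB and can raise or lower transcription. It is best known from bone formation, and its relatives govern blood cell formation. KMT2A fusion proteins such as KMT2A-MLLT1 hold marrow progenitors in a self-renewing, immature myeloid state. The granules of granulocytes are filled with proteins such as peroxidases, ribonucleases and lactoferrin.

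The core RUNX motif was looked for as TGTGGT, or ACCACA on the other strand, in the 250 bases before each RefSeq start site (GRCm38.p6). It was present in 14.0% of all 32851 promoters. Promoters were at hand for 6 peak genes, of which C2cd4a and Wfdc17 held it, and for 51 dip genes, of which 9 did (17.6%, against 15.9% of all 27025 genes). F2r, Cd96 and 2900052L18Rik were the genes with it among the 28 dip genes below every other library. The peak promoters with the motif, and that of F2r, the most highly expressed dip gene that held it, are printed 5' to 3' on the gene's own strand with the motif in capitals, to show where it lies. A match describes the letters only; binding was not measured here.
C2cd4a (chr9:67832331-67832580, minus strand): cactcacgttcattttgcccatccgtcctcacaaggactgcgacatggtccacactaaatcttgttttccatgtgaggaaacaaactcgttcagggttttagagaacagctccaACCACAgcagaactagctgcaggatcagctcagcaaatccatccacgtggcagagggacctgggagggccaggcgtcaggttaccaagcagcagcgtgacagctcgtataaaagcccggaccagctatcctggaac
Wfdc17 (chr11:83703806-83704055, plus strand): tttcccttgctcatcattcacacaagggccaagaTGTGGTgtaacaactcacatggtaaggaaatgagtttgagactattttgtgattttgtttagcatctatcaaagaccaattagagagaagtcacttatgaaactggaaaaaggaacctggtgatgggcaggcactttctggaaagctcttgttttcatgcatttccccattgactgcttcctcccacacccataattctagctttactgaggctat
F2r (chr13:95618467-95618716, minus strand): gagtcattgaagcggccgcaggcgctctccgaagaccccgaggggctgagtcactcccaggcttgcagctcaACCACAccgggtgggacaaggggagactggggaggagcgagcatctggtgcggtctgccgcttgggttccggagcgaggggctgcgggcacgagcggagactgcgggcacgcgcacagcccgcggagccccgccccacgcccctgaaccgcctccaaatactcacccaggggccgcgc

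The 9 peak genes encode proteins of the cell surface, junctions and extracellular space, protease inhibitors, a C2 domain protein and 1 homeobox factor, and all are protein coding. In each of the 9, the libraries labelled Runx2ko replicates 2 and 3 lay above all 3 BM progenitor libraries and, by the rule, below all Runx2wt libraries. The share of all genes with replicates 2 and 3 above BM progenitor was not counted, so this is a description only. Replicate 1 was at or below the highest BM progenitor value in 7 of the 9 and above it for Serpinb6a and Mpzl1. On the scale log2 (normalized count + 1), with the BM progenitor mean set to 0 and the Runx2wt mean to 1, the median peak gene stood at 0.70 and 0.72 in Runx2ko replicates 2 and 3 and at 0 in replicate 1.

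**Figure D1:**
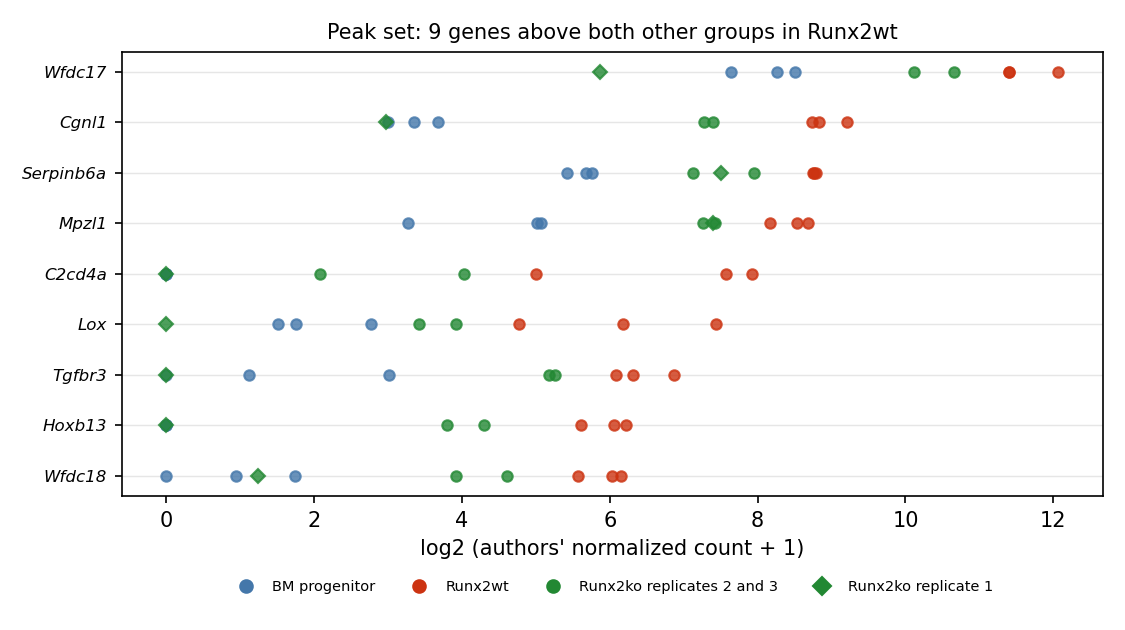
Values of the 9 peak genes in each library on the scale log2 (authors' normalized count + 1), with genes ordered by their Runx2wt mean and points at 0 drawn on top of each other. Runx2wt (red) lies to the right of all other points by construction; replicates 2 and 3 labelled Runx2ko (green circles) lie between Runx2wt and BM progenitor (blue), and replicate 1 (diamond) lies at or below the highest BM progenitor point in 7 of the 9 genes.

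Hoxb13 (ENSMUSG00000049604, GRCm38 chromosome 11, 96194316 to 96197447, plus strand) is the most 5' gene of the Hoxb homeobox cluster, best known from prostate and tail development. Its normalized counts were 73.3, 65.7 and 47.7 in Runx2wt, 0, 18.6 and 12.9 in Runx2ko and 0 in all 3 BM progenitor libraries. It was thus counted only in transformed libraries, and in 5 of those 6. Against a floor of 3 counts over the group, the Runx2wt level was at least 68.5-fold higher than in BM progenitor. The lowest Runx2wt value was 2.56 times the highest value elsewhere, the widest gap of the 9.

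Cgnl1 (chromosome 9, 71626509 to 71771602, minus strand) encodes paracingulin, a cytoplasmic protein of cell junctions, and is the only peak gene among the 28 lists examined, where it stands with the adhesion molecules. It was at 456, 424 and 592 normalized counts in Runx2wt and at 11.8, 6.98 and 9.18 in BM progenitor. In the libraries labelled Runx2ko it was at 6.84, 154 and 168. Replicate 1 therefore lay just below the BM progenitor range, while the other 2 lay over 10 times above it. The Runx2wt mean was 52.7 times the BM progenitor mean and 4.48 times the Runx2ko mean.

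Mpzl1, a membrane glycoprotein that recruits the phosphatase SHP2, and Serpinb6a, an intracellular inhibitor of serine proteases such as cathepsin G, were the peak genes that stood above BM progenitor in all 3 libraries labelled Runx2ko. Serpinb6a was at 431, 433 and 443 normalized counts in Runx2wt, at 181, 139 and 245 in Runx2ko and at 41.7, 50.0 and 53.2 in BM progenitor. Mpzl1 was at 288, 368 and 409, at 167, 153 and 170 and at 8.65, 32.6 and 31.2 in the same order. In these 2 genes the 3 groups did not overlap, with Runx2ko in the middle. Their Runx2wt means were 2.31 and 2.17 times the Runx2ko means, the smallest such ratios of the 9. Over all genes tested, every Runx2ko library lay above every BM progenitor library in 19.0%. Nothing is therefore read from these 2 of the 9.

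Wfdc17 and Wfdc18 encode small secreted proteins with a whey acidic protein domain, a fold found in protease inhibitors, and Wfdc17 is known from activated macrophages. They are neighbours on chromosome 11 (83703991 to 83706268 and 83709015 to 83711348), 2746 bases apart on the plus strand. Wfdc17 was the most abundant peak gene, at 4277, 2706 and 2708 normalized counts in Runx2wt, 57.5, 1108 and 1606 in Runx2ko and 199, 307 and 363 in BM progenitor. Wfdc18 was at 64.6, 46.6 and 70.3, at 1.37, 23.5 and 14.1 and at 0, 2.33 and 0.918. Wfdc17 was lowest of all 9 libraries in Runx2ko replicate 1, where the monocyte and macrophage markers were also lowest; the part of those markers in the Wfdc17 values was not tested. As members of 1 gene family the 2 could share reads, which was not tested.

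Lox and Tgfbr3 act outside the cell or at its surface. Lox encodes lysyl oxidase, which crosslinks collagen and elastin, and was at 71.7, 26.3 and 172 normalized counts in Runx2wt, at 0, 9.71 and 14.1 in Runx2ko and at 2.36, 5.81 and 1.84 in BM progenitor. Tgfbr3 encodes betaglycan, a coreceptor that presents TGF-beta ligands, and was at 66.9, 116 and 78.7, at 0, 37.2 and 35.2 and at 7.07, 1.16 and 0. Both were at 0 in Runx2ko replicate 1. C2cd4a, a small C2 domain protein, was at 241, 189 and 31.0 in Runx2wt, at 0, 3.24 and 15.3 in Runx2ko and at 0 in BM progenitor. C2cd4a and Lox varied most within Runx2wt, with the highest library 7.77 and 6.53 times the lowest, against 1.03 to 1.73 times for the other 7 peak genes.

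The rule does not use the difference between Runx2ko and BM progenitor, so this comparison could be tested. Of 11196 genes tested, 17.2% passed at an adjusted p under 0.05 (edgeR quasi-likelihood test, Benjamini-Hochberg over all genes), made up of 10.0% higher and 7.14% lower in Runx2ko. All 9 peak genes were tested, 5 rose and none fell. Their median log2 fold change was 3.02, or 2.79 with the 2 genes that had no BM progenitor count (Hoxb13 and C2cd4a) set at their lower bound, against 0.07 over all genes. Only Cgnl1, Mpzl1, Serpinb6a and Wfdc17 passed the filter on low counts when the 6 compared libraries stood alone, and of these Mpzl1 and Serpinb6a passed the test. The other 5 genes entered through Runx2wt, the group that defines them as members, so the count and the median over the 9 are descriptions from which nothing is read.

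Serpinb6a rose by 1.97 log2 units (SE 0.23, adjusted p = 0.00200 by edgeR) and Mpzl1 by 2.79 (SE 0.40, adjusted p = 0.00449). Cgnl1 rose by 3.54 (SE 0.84, adjusted p = 0.0231). Hoxb13 rose at least 13-fold (adjusted p = 0.0357), with 34 counts against 0, and Wfdc18 rose 16-fold (95% counting interval 5.11 to 80.7; adjusted p = 0.0384), with 42 counts against 3; both were tested only because Runx2wt took them past the filter. Tgfbr3 (3.02, SE 1.18, adjusted p = 0.108), C2cd4a (17 counts against 0, adjusted p = 0.124), Wfdc17 (1.68, SE 0.82, adjusted p = 0.182) and Lox (1.33, SE 1.06, adjusted p = 0.417) did not pass. Serpinb6a and Mpzl1 passed under every alternative run and the other 3 did not: 2 or 3 of the 9 passed when any library other than Runx2ko replicate 1 was left out, and limma-voom passed only these 2 (7.95% of all genes as higher). Without Runx2ko replicate 1, 7 of 9 rose, with Tgfbr3 and Wfdc17 added, against 15.9% of 11636 genes. The 9 were chosen by high Runx2wt values, which could also take them past the filter of that run, so nothing is read from this count.

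The 28 dip genes in which Runx2wt lay below every other library fall into 10 in which BM progenitor was wholly above Runx2ko, 2 in which Runx2ko was wholly above BM progenitor (Xlr3a and Efcab2) and 16 in which these groups overlapped. Over the genes tested, BM progenitor was wholly above Runx2ko in 19.5% and wholly below in 19.0%. The library labelled Runx2ko replicate 1 was the highest of the 9 for 16 of the 28 and above all BM progenitor libraries for 17. Replicates 2 and 3 were both below all BM progenitor libraries for 22. For these counts by replicate no share over all genes was taken, so they are descriptions only. On the scale from the BM progenitor mean (0) to the Runx2wt mean (1), the median gene stood at -0.18 in replicate 1, beyond the BM progenitor mean, and at 0.48 and 0.57 in replicates 2 and 3. Depth limits the Runx2wt side: of the 24 genes with Runx2wt counts, 12 had 10 or fewer over its 3 libraries and 4 had 100 or more (F2r, Impdh1, Mpo and Tbc1d10c).

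**Figure D2:**
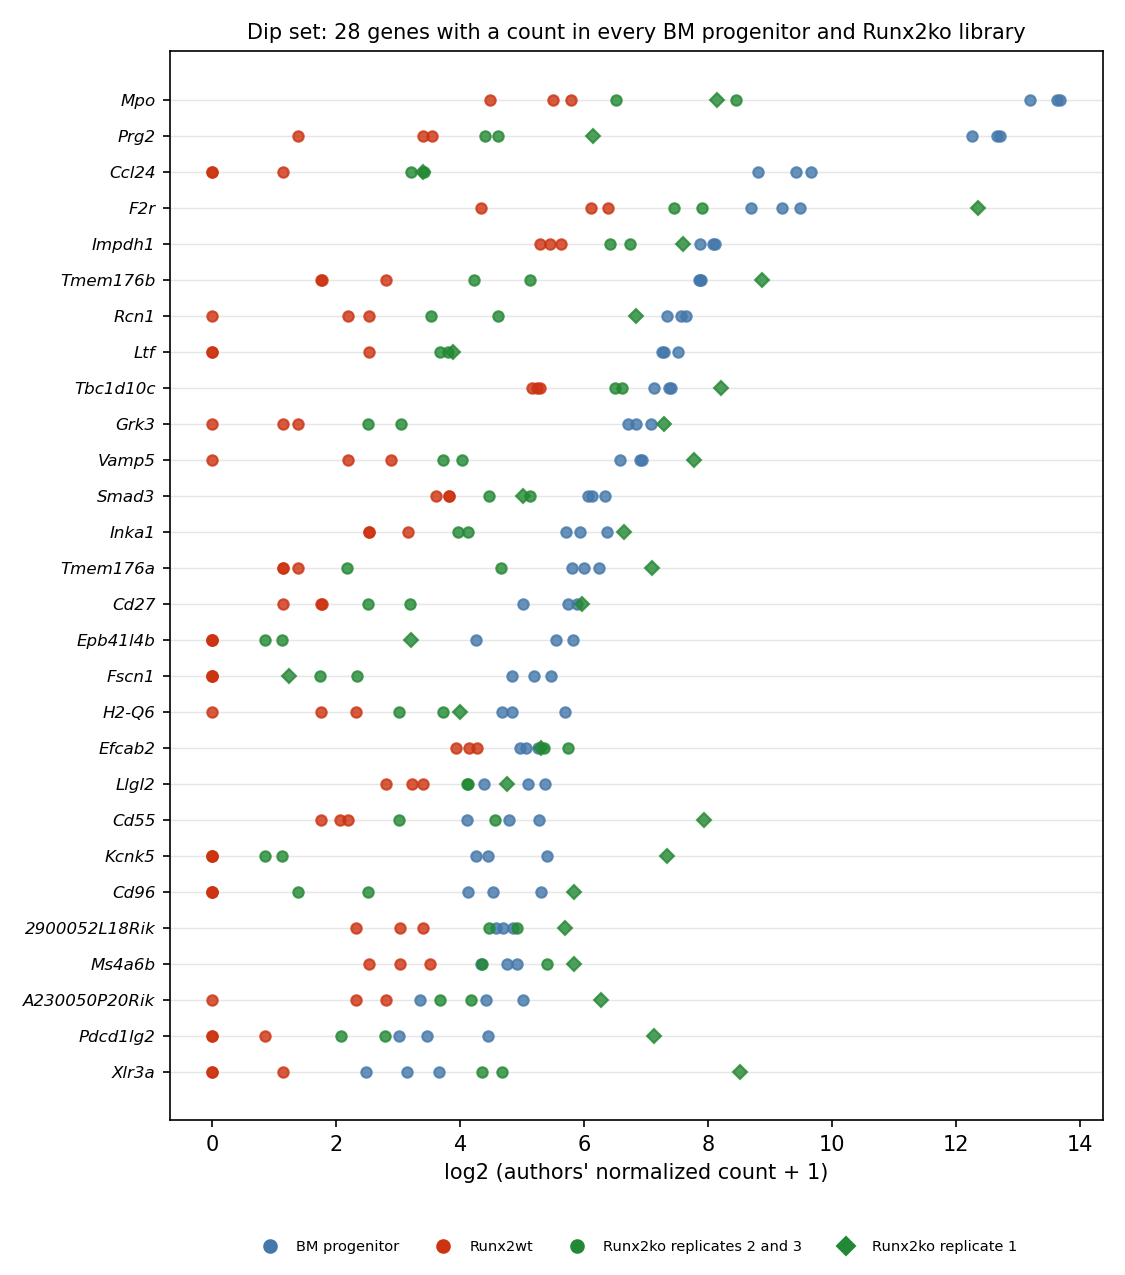
Values of the 28 dip genes with a count in every BM progenitor and Runx2ko library, on the scale log2 (authors' normalized count + 1), ordered by the BM progenitor mean. Runx2wt (red) is lowest by construction; Runx2ko replicate 1 (green diamond) is the highest point in 16 genes, and replicates 2 and 3 (green circles) are both below all BM progenitor points (blue) in 22.

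Mpo (chromosome 11, 87793581 to 87804413, plus strand), the myeloperoxidase of neutrophil primary granules, was at 13160.5, 12672 and 9367 normalized counts in BM progenitor. It was at 54.2, 44.2 and 21.5 in Runx2wt and at 283, 90.6 and 348 in Runx2ko. All transformed libraries were therefore far below BM progenitor, and Runx2wt was lowest. Mpo and Epx, the eosinophil peroxidase described below, lie 59586 bases apart on opposite strands. In bulk samples such as these, fewer cells of a type and less RNA per cell cannot be told apart.

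Prg2, the major basic protein of eosinophil granules, was at 6502, 6709.7 and 4932 normalized counts in BM progenitor, at 1.59, 9.55 and 10.7 in Runx2wt and at 69.8, 20.2 and 23.5 in Runx2ko. Ccl24, eotaxin-2, which attracts eosinophils, was at 446, 809 and 684, at 0, 0 and 1.19 and at 9.58, 9.71 and 8.22. Ltf, the lactoferrin of secondary neutrophil granules, was at 155, 152 and 183, at 0, 4.78 and 0 and at 13.7, 12.9 and 11.7. For Ccl24 and Ltf the 3 libraries labelled Runx2ko, replicate 1 included, were nearly level, but the Runx2wt side rests on 1 and 4 counts. Ccl24 had the widest gap in the dip set, with the lowest other value 6.90 times the highest in Runx2wt.

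Signalling genes of the set included Smad3, F2r and Grk3. Smad3, the transcription factor that carries TGF-beta signals and a known partner of RUNX proteins, was at 80.2, 68.6 and 66.1 normalized counts in BM progenitor, at 11.2, 13.1 and 13.1 in Runx2wt and at 31.5, 34.0 and 21.1 in Runx2ko. Its 3 groups did not overlap, Runx2ko lay in the middle and replicate 1 lay among its group. F2r (chromosome 13, 95601803 to 95618487, minus strand), the thrombin receptor PAR1, was at 415, 716 and 586, at 19.1, 82.4 and 67.9 and at 5239, 237 and 175. F2r thus had 1 library, Runx2ko replicate 1, over 7 times above any other, while the other 2 libraries labelled Runx2ko lay between Runx2wt and BM progenitor. Grk3, a kinase that switches off G protein-coupled receptors, followed the same order with 3 counts in Runx2wt: 113, 103 and 135 in BM progenitor, 1.59, 0 and 1.19 in Runx2wt and 155, 7.28 and 4.70 in Runx2ko.

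Tbc1d10c (carabin), which restrains calcineurin and Ras signalling in lymphocytes, was at 169, 164 and 139 normalized counts in BM progenitor, at 36.7, 38.2 and 34.6 in Runx2wt and at 294, 89.0 and 96.3 in Runx2ko. Runx2wt was tight for this gene, its highest library 1.11 times its lowest. Impdh1, which catalyses the committed step of guanine nucleotide synthesis, was at 270.4, 234 and 276, at 48.6, 38.2 and 42.9 and at 192, 84.2 and 106. Its 3 groups did not overlap either.

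Tmem176b and Tmem176a, paired membrane channels known from dendritic cells, overlap head to head on chromosome 6 (48833818 to 48841496 and 48840919 to 48847071) on opposite strands. Tmem176b was at 232, 231 and 236 normalized counts in BM progenitor, at 2.39, 2.39 and 5.96 in Runx2wt and at 465, 34.0 and 17.6 in Runx2ko. Tmem176a was at 55.0, 62.8 and 74.3, at 1.59, 1.19 and 1.19 and at 135, 24.3 and 3.52. In both, Runx2ko replicate 1 was the highest library and replicates 2 and 3 were below BM progenitor. No source used here says whether the authors counted by strand, and the 2 genes share an overlap, though not at their 3' ends.

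Cd27, a receptor of the TNF family, was at 52.7, 58.1 and 31.2 normalized counts in BM progenitor, at 2.39, 1.19 and 2.38 in Runx2wt and at 61.6, 8.09 and 4.70 in Runx2ko; its 3' end lies within Vamp1 on the other strand. Cd55, which protects cells from complement, was at 37.7, 16.3 and 26.6, at 3.19, 3.58 and 2.38 and at 244, 22.7 and 7.04. Vamp5, a vesicle fusion protein, was at 119, 94.2 and 121, at 6.38, 0 and 3.58 and at 218, 12.1 and 15.3. In all 3, Runx2ko replicate 1 was above every other library. The same held for Pdcd1lg2 (the PD-1 ligand PD-L2), Ms4a6b, Inka1 (an inhibitor of the kinase PAK4), Cd96, Kcnk5 (a potassium channel) and Xlr3a. Pdcd1lg2 also overlaps another gene, A930007I19Rik, at its 3' end.

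Rcn1, a calcium-binding protein of the endoplasmic reticulum, H2-Q6, a nonclassical class I gene of a family with near copies, Fscn1, the actin bundler fascin, and Epb41l4b ran the other way, with every BM progenitor library above every library labelled Runx2ko. Rcn1 was at 160, 187 and 199 normalized counts in BM progenitor, at 0, 4.78 and 3.58 in Runx2wt and at 114, 23.5 and 10.6 in Runx2ko. Fscn1 was at 35.4, 43.0 and 27.5, at 0 throughout Runx2wt and at 1.37, 4.05 and 2.35, so its Runx2ko values stand for 8 counts. Such values are a few counts above the 0 of Runx2wt.

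Efcab2 and Xlr3a were the 2 in which all libraries labelled Runx2ko exceeded BM progenitor. Efcab2, an EF-hand protein, was at 32.2, 37.2 and 30.3 normalized counts in BM progenitor, at 18.3, 14.3 and 16.7 in Runx2wt and at 38.3, 52.6 and 39.9 in Runx2ko. Xlr3a, an X-linked gene of a family with close copies, was at 7.86, 11.6 and 4.59, at 0, 1.19 and 0 and at 365, 19.4 and 24.7. Replicate 1 thus set most of the Runx2ko mean of Xlr3a, though replicates 2 and 3 were also above BM progenitor.

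The 41 dip genes that shared their 0 with another library were mostly highest in Runx2ko replicate 1. A BM progenitor library was at 0 in only 12 of the 41. In 32 of them Runx2ko replicate 1 had the highest value, in 8 a BM progenitor library and in 1, the chemokine Ccl8, Runx2ko replicate 2 (54.2 normalized counts, with at most 1.37 elsewhere). In 30 of the 41, Runx2ko replicate 1 alone reached 40. In 18, Runx2ko replicates 2 and 3 were both at 0, as Runx2wt was, and in 4 all BM progenitor libraries were. Without Runx2ko replicate 1, 33 of the 69 dip genes still met the rule.

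**Figure D3:**
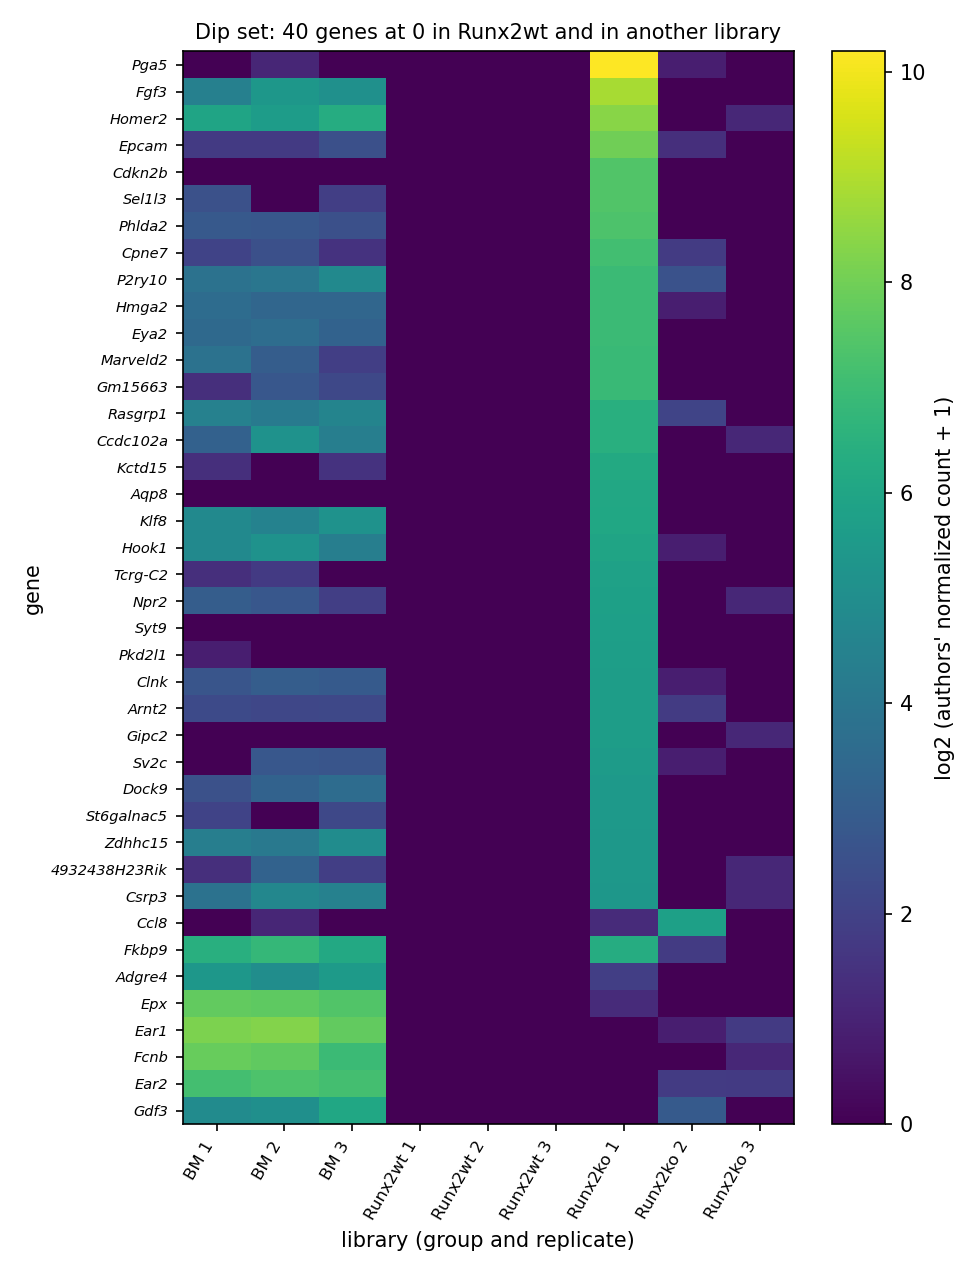
Values of 40 of the 41 dip genes at 0 in Runx2wt and in at least 1 other library, as log2 (authors' normalized count + 1) in colour, with libraries in columns. The column of Runx2ko replicate 1 holds the highest value of 32 genes and the BM progenitor columns that of 7 in the lowest rows.

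Pga5, a pepsinogen, was at 1171 normalized counts in Runx2ko replicate 1, at 0.809 in replicate 2 and at 0 or 1.16 in the others. Cdkn2b, the cell cycle inhibitor p15, was at 172 in that library and at 0 in the other 8, Runx2wt and BM progenitor included. Epcam, an epithelial adhesion molecule, reached 254 there and at most 4.59 elsewhere. These 3 were therefore apart in Runx2ko replicate 1, not in Runx2wt. The same library carried the high mast cell and basophil sum, whose part in these values was not tested.

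Fgf3, a fibroblast growth factor, Homer2, a scaffold protein, and Hmga2, a chromatin protein and known target of KMT2A fusions, were also expressed in BM progenitor. Fgf3 was at 20.4, 40.7 and 33.9 normalized counts there and at 461, 0 and 0 in Runx2ko. Homer2 was at 60.5, 48.8 and 78.0 and at 328, 0 and 1.17. Hmga2 was at 11, 9.30 and 9.18 and at 123, 0.809 and 0. With no count in Runx2wt, BM progenitor was at least 29.7-fold higher for Fgf3, 61.9-fold for Homer2 and 9.70-fold for Hmga2. Runx2ko replicates 2 and 3 were at or near 0 for all 3, like Runx2wt. Rasgrp1, a Ras activator, had 21.2, 17.4 and 22.9 in BM progenitor and 86.2, 3.24 and 0 in Runx2ko.

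The genes led by BM progenitor in this subset included Adgre4, Ear1, Ear2, Epx, Fcnb, Fkbp9 and Gdf3. Epx, the eosinophil peroxidase, was at 214, 201 and 170 normalized counts in BM progenitor and at 1.37, 0 and 0 in Runx2ko. Ear1, an eosinophil-associated ribonuclease, was at 291, 314 and 211 and at 0, 0.809 and 2.35, and its relative Ear2 at 140, 162 and 141 and at 0, 2.43 and 2.35. Fcnb, ficolin B of neutrophil precursors, was at 227, 206 and 122 and at 0, 0 and 1.17. BM progenitor was at least 264-fold (Ear1), 191-fold (Epx), 182-fold (Fcnb) and 143-fold (Ear2) higher than Runx2wt. For these 4 genes Runx2wt and Runx2ko were both at or within a few counts of 0, so the 2 transformed groups could not be told apart for them at this depth. Ear1 and Ear2 are near copies, and reads of the family may be split between them.

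In the test of Runx2ko against BM progenitor, 44 of the 69 dip genes passed the filter on low counts. Of these, 14 fell and 1 rose, beside 7.14% and 10.0% of all genes tested, with a median log2 fold change of -0.62. Because Runx2wt is low, a dip gene could reach the rule's minimum of 40 only in BM progenitor or Runx2ko, which favours genes high in 1 of them, so nothing is read from this count. Among the 28 genes below every other library, 27 were tested: 8 fell (Ccl24, Epb41l4b, Fscn1, Impdh1, Ltf, Mpo, Prg2 and Smad3), Xlr3a rose and 18 did not pass. The other 6 that fell were Adgre4, Ear1, Ear2, Epx, Fcnb and Gdf3, all tied at 0.

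**Figure D4:**
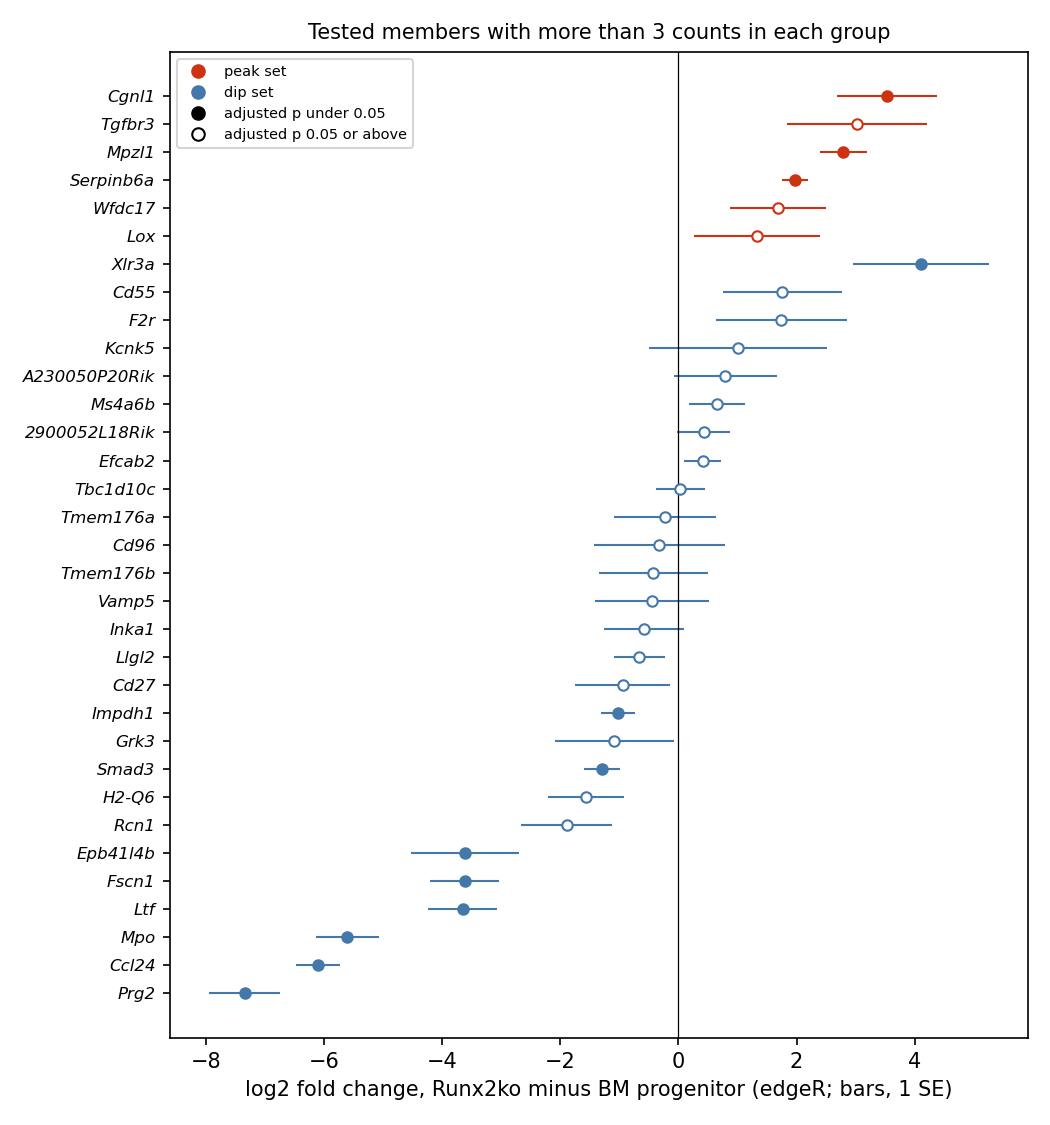
Log2 fold change of Runx2ko over BM progenitor (edgeR, bars 1 SE) for the 33 tested members with more than 3 counts in each of these groups and, in the dip set, a count in all 6 libraries. All 6 peak genes drawn (red) lie above 0, of which Cgnl1, Mpzl1 and Serpinb6a passed (filled); the 27 dip genes (blue) run from Xlr3a at 4.10 to Prg2 at -7.34.

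Prg2 fell by 7.34 log2 units (SE 0.60, adjusted p = 0.000769 by edgeR), Ccl24 fell by 6.10 (SE 0.38, adjusted p = 0.000163) and Mpo fell by 5.60 (SE 0.53, adjusted p = 0.00138). Ltf fell by 3.65 (SE 0.58, adjusted p = 0.00664), Smad3 fell by 1.29 (SE 0.31, adjusted p = 0.0226) and Impdh1 fell by 1.02 (SE 0.29, adjusted p = 0.0415). Xlr3a rose by 4.10 (SE 1.15, adjusted p = 0.0391), but without Runx2ko replicate 1 the value was 1.46 with adjusted p = 0.122 (0.0164 to 0.253 over its alternatives). Epx (630 counts in BM progenitor and 1 in Runx2ko), Fcnb (599 and 1) and Ear1 (870 and 3) fell with adjusted p values of 0.00138, 0.00150 and 0.00110 by edgeR. Genes with so few counts in both transformed groups, Ccl24, Ear2, Adgre4, Gdf3, Fscn1 and Epb41l4b included, passed the filter only through BM progenitor. Their falls were favoured by that, so they are given as descriptions only. Prg2, Ccl24, Mpo, Ltf, Epx, Fcnb, Ear1 and Ear2 passed under every alternative run, whereas Smad3, Impdh1, Fscn1, Epb41l4b, Adgre4, Gdf3 and Xlr3a each missed the threshold under at least 1. Without Runx2ko replicate 1, 36 of 46 tested dip genes fell and none rose, against 12.6% of all genes lower. Tmem176a, Tmem176b, F2r, Grk3 and Tbc1d10c were among the 36. Because Runx2wt is low, a dip gene passed the filter of that run mainly through BM progenitor or Runx2ko replicates 2 and 3. This favours genes high in 1 of these groups, so nothing is read from this count either. Of the 36 that fell, 7 changed sign, none of which had passed with Runx2ko replicate 1 in the fit. For F2r, Kcnk5 and Tbc1d10c, which were among the 7, the log2 fold changes were 1.74, 1.01 and 0.03 with that library and -1.46, -4.63 and -0.76 without it.

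Beside these calls stand the cell type markers. Of 9 eosinophil genes counted, 4 were dip genes (Prg2, Epx, Ear1 and Ear2). Of the 9, 8 fell in Runx2ko against BM progenitor, these 4 included, beside 7.14% of all genes. The other 5 eosinophil genes summed to 515 to 681 normalized counts in BM progenitor, 2.39 to 18.3 in Runx2wt and 10.9 to 18.8 in Runx2ko. Of 20 neutrophil genes 3 were dip genes (Mpo, Ltf and Fcnb). Of 19 neutrophil genes tested, 4 fell, these 3 included, and 1 rose, beside 7.14% lower and 10.0% higher over all genes. The dip genes on both lists had to be high in BM progenitor or Runx2ko to be members, so nothing is read from either count. The other 17 neutrophil genes summed to 46600 to 62155 in BM progenitor, 7873 to 20360.0 in Runx2wt and 4666, 28495 and 51351 in Runx2ko replicates 1 to 3. The neutrophil sum of replicates 2 and 3 thus exceeded that of every Runx2wt library, and its part in the Mpo and Ltf values was not tested. No gene on the mast cell, monocyte, dendritic, erythroid, progenitor or lymphoid marker lists was a member of either set. Members outside the lists include genes known from such cells, such as Wfdc17, Tmem176a and Tmem176b.

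Of the 78 members, 13 were in any of the 28 lists of pathways and cell type markers. The share of all genes in these lists was not counted, so this is a description only. Besides the markers, the 13 were Cgnl1, Smad3 (among 18 RUNX cofactors and relatives), Ccl24 (among 31 chemokines and receptors) and the tied Hmga2, Cdkn2b and Rasgrp1. Of 17 tested RUNX cofactors, Smad3 alone passed in Runx2ko against BM progenitor, and of 28 tested chemokines and receptors 7 fell and none rose, beside 7.14% lower and 10.0% higher over all genes. Of 21 tested KMT2A fusion targets outside the Hoxa cluster 7 rose and 2 fell. Of 31 adhesion genes tested 6 rose and 1 fell, against the same shares over all genes.

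For the contrasts that the rule used, the calls are given only as descriptions. In Runx2wt against BM progenitor edgeR called 8.28% of genes higher and 5.23% lower; all 9 peak genes and 27 of 44 dip genes were among them. In Runx2ko against Runx2wt edgeR called 0% of the 11196 genes, as did limma-voom, and 7.91% (886 genes) had an unadjusted p under 0.05, with 7 peak and 40 dip genes among them. DESeq2 called 46 genes (0.415%), 0.289% as higher and 0.126% as lower in Runx2ko, with 11 dip genes among the higher and Serpinb6a and Lox among the lower. Without Runx2ko replicate 1, edgeR called 5 genes (0.0430%), 0.0258% as lower in Runx2ko, and of these Cgnl1 was a member.

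The same rule with another group in the place of Runx2wt gave 297 genes in which BM progenitor was above and 368 in which it was below both transformed groups, and 12 and 11 for Runx2ko. With a count required in every library of the higher side, these became 297 and 350 for BM progenitor, 8 and 9 for Runx2ko, and 9 and 28 for Runx2wt. BM progenitor was therefore apart from the others far more often than Runx2wt was. At the edge of the rule, the peak genes just inside were Wfdc17 (1.68 times), Mpzl1 (1.69) and Serpinb6a (1.76), and those just outside were Cbr1 (1.49), Lppos (1.48) and Stac2 (1.42). In the dip set A230050P20Rik (1.54), Smad3 (1.61) and Efcab2 (1.65) were just inside, and Sh2d5 (1.47), Rgs1 (1.46) and Ly6a (1.42) just outside.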

How the data were processed

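The 9 libraries, 3 per group, were taken from 1 table of raw counts per Ensembl gene and 1 table of normalized values, both deposited by the authors. Division of the tables showed that each normalized value was the raw count times 1 constant per library; no source used here says how the constants were derived. FastQC, STAR and DESeq2 with GRCm38 are named per the submitters' processing notes, without versions. Symbols and places came from a GENCODE annotation of that build (21042 of 21159 genes matched) and promoters from RefSeq.

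Membership used the normalized values. The members, lists and tests were chosen with earlier results of these data known. The test across genes was edgeR 4.0.16 under R 4.3.3 on the raw counts (quasi-likelihood F-test, TMM, filterByExpr, all 9 libraries sharing 1 spread, Benjamini-Hochberg over all 11196 genes, threshold 0.05). Standard errors were derived from the F statistic. DESeq2 1.42.0 and limma-voom 3.58.1, other scaling and filters, a replicate block and leaving out each library were alternatives, and the fit was tested on simulated data. Folds against a group at 0 used a floor of 3 counts over the group, and intervals (exact, 95%) cover counting error only.

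Members were named by a rule on gap, level, list membership and the size of the Runx2ko against BM progenitor change; the gap is undefined for the 45 dip genes with no Runx2wt count, which were named through the other parts of the rule. The remaining members were named after their values were seen. One member is not reported here by name.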

Additional observations from a re-analysis of the deposited data

How the results depend on the processing

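The sizes of the sets depended on the rule. The peak set held 29 genes at a smaller fold, 3 at a fold of 2 and 24 at a minimum of 10, and 10 to 39 when each library was left out. The dip set held 220 genes at a minimum of 10, 34 at a minimum of 100, 45 to 124 when each library was left out, and 28 when every higher library had to hold a count, an alternative chosen after seeing the data. Of the 45 dip genes found without Runx2ko replicate 1, 33 were members; 66 members were kept without BM progenitor replicate 3, 67 without Runx2ko replicate 2 and 68 without BM progenitor replicate 2.

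Runx2ko against BM progenitor gave 1262 genes from the 6 compared libraries alone and 405 to 3311 when each library was left out, the highest without Runx2ko replicate 1 and the lowest without a BM progenitor library. limma-voom called 890 genes higher and 989 lower, against 1125 and 799 by edgeR; the cause of the shift was not tested. Runx2wt against BM progenitor gave 2390 genes by DESeq2 and 209 to 3256 with a library left out, and Runx2ko against Runx2wt gave 46 by DESeq2 and 0 to 5. Among peak genes, 2 passed by limma-voom and 2 with only the 6 libraries, where 4 were tested; with a library left out 2 to 7 passed, and 8 to 36 dip genes. The 24 genes followed under every alternative (the peak genes and the dip genes that passed) kept their direction; 279 of their alternative values kept their side of the threshold, 71 lost it and 4 gained it. Among all 53 tested members, 18 that had not passed changed sign under at least 1 alternative: 11 without Runx2ko replicate 1, of which 7 then passed as lower, 7 each by limma-voom, with the replicate block and without Runx2ko replicate 2 or 3, and 2 without BM progenitor replicate 3.

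Replicate numbers are shared between groups. Same-numbered deviations correlated at -0.07 to 0.01 between BM progenitor and Runx2ko, at 0.01 to 0.06 between BM progenitor and Runx2wt and at -0.06 to 0.07 between Runx2wt and Runx2ko. Other-numbered deviations correlated at -0.12 to 0.12, -0.05 to 0.04 and -0.12 to 0.15 in the same order. With 3 libraries per group these values cannot decide whether same-numbered samples were paired. With the replicate block, 1120 genes passed for Runx2ko against BM progenitor, 922 for Runx2wt against BM progenitor and 0 for Runx2ko against Runx2wt, with 2 peak and 11 dip genes in the first.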

Other observations

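Without the library labelled Runx2ko replicate 1, and with a count required in every higher library, 36 genes met the dip rule, of which 12 were not members with it. Granulocyte and monocyte genes stood among these 12, chosen here after their values were seen. S100a8, a calprotectin subunit of neutrophils, was at 23392, 19468.5 and 16611 normalized counts in BM progenitor, at 538, 6216 and 1299 in Runx2wt and at 10466 and 19283 in Runx2ko replicates 2 and 3, but at 168 in replicate 1. S100a9, the other subunit, was at 5178 and 8806 in replicates 2 and 3 and at 178 in replicate 1, with 39.1, 2824 and 276 in Runx2wt. Chil3, a chitinase-like protein of myeloid cells, was at 1553 and 4694 in replicates 2 and 3, at 69.8 in replicate 1 and at 1.59, 135 and 83.4 in Runx2wt. The remaining genes included the kinase Fgr, Retnlg and Aif1. The peak rule gained 5 genes, among them the motor protein Myo6 (151, 168 and 76.3 in Runx2wt, 24.3 and 42.3 in Runx2ko replicates 2 and 3, 60.2 in replicate 1) and Tecpr1. The rule then compared Runx2wt with 5 libraries, and these differences were not tested.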
